A study of Mus musculus with 8 samples.

Results

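The expression of 10 genes of prostaglandin and nitric oxide synthesis was examined in primary mouse cortical astrocytes: Pla2g4a, Ptgs1, Ptgs2, Ptges, Ptges2, Ptges3, Ptgds, Hpgd, Nos2 and Gch1. They were chosen by symbol, as the name that follows the identifier in the deposited gene rows, and all 10 were found among 54146 genes. RNA was sequenced from 8 libraries in 4 groups of 2 biological replicates. Glial cells came from cortices of C57BL/6 pups at 2 to 5 days after birth and carried a lentivirus for an shRNA against Gstm1 (GSTM1 KD) or for a non-silencing shRNA (control KD), with puromycin selection. Both KD groups were examined without stimulation (the basal level) and with TNF-α, given at 50 ng/ml over 6 h. Control KD cells carried virus and selection too, so that no uninfected group enters here. Astrocytes were the cells left after shaking off other glia and removing CD11b-positive cells, and brains were pooled in culture flasks. What the replicate number stands for is not given in the sources used here, and p-values measure the spread between these libraries.

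Prostaglandins are lipid mediators made from arachidonic acid, which cytosolic phospholipase A2 (Pla2g4a) releases from membranes. The cyclooxygenases COX-1 (Ptgs1) and COX-2 (Ptgs2) turn arachidonic acid into prostaglandin H2, and terminal synthases turn that into prostaglandin E2 (Ptges, Ptges2, Ptges3) or prostaglandin D2 (Ptgds), while Hpgd degrades prostaglandins. Nitric oxide comes from arginine through nitric oxide synthases, of which Nos2 is the inducible one, and needs the cofactor tetrahydrobiopterin, whose synthesis starts with GTP cyclohydrolase (Gch1). COX-2, Ptges and Nos2 are known as genes that inflammatory cytokines induce in glia.

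The stretch around the start site of Ptgs2 and Ptges, both lower with GSTM1 KD, of Gch1, which rose with TNF-α and passed no test between KD groups, and of Ptgs1, the cyclooxygenase that passed no test, is shown first. Each sequence is from RefSeq on GRCm38.p6, from 250 bases before the start site to 30 bases from it on, read along the gene's strand, at chr1:150099781-150100060 for Ptgs2 (plus strand), chr2:30903268-30903547 for Ptges (minus strand), chr14:47189384-47189663 for Gch1 (minus strand) and chr2:36230176-36230455 for Ptgs1 (plus strand). Capitals mark matches to the motifs searched on both strands: TGACG (the half-site of a cyclic AMP response element, CRE), TGANTCA (AP-1), CACGTG (an E-box), TTGCNNAA (C/EBP) and the NF-κB consensus.
Ptgs2: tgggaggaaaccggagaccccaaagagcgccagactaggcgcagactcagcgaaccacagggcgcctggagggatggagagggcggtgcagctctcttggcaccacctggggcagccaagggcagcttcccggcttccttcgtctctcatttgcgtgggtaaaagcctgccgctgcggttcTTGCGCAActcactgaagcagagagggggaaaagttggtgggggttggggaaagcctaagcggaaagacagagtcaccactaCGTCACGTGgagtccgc
Ptges: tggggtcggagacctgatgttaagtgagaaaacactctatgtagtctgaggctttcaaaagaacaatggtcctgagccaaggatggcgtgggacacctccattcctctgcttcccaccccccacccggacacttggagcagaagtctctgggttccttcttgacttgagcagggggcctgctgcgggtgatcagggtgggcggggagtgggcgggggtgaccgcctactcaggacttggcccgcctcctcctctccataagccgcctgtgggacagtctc
Gch1: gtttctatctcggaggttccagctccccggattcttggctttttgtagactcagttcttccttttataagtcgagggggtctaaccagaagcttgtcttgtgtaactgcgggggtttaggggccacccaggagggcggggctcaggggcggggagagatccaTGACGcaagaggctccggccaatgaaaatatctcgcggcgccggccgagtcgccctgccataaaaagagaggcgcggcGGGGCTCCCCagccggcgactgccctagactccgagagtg
Ptgs1: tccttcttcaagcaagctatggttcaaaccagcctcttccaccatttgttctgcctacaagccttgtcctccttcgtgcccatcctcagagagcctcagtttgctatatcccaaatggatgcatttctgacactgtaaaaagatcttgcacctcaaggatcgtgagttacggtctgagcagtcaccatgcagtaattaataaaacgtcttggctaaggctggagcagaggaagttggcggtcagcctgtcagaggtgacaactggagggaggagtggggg
The Ptgs2 window holds the C/EBP letters from position -69 to -62, and the CRE half-site from 14 to 18, which overlaps the E-box from 17 to 22, where 1 is the start site. The Gch1 window holds the CRE half-site letters from -88 to -84 and an NF-κB consensus match from -10 to -1. Neither the Ptges nor the Ptgs1 window holds any of the letters searched. Of 32851 promoter windows of this length, 7.94% hold the NF-κB consensus, 19.9% TGACG, 7.46% TGANTCA, 6.79% CACGTG and 10.4% TTGCNNAA, so that a match describes the window and no binding site. In GENCODE M21 on GRCm38, Ptgs2 (ENSMUSG00000032487.8, chr1:150100031-150108227) and Pla2g4a (ENSMUSG00000056220.14, chr1:149829618-149961290) are neighbours with 138740 bases between them and 0 protein-coding genes in that stretch. Ptges (ENSMUSG00000050737.13) spans chr2:30889471-30929863, so that the RefSeq start shown lies within its GENCODE span. Ptgs1 (ENSMUSG00000047250.13, chr2:36230426-36252272) shares exon bases with Gm43621 on the opposite strand. The other members lie at chr2:32395896-32405772 (Ptges2), chr10:128058954-128077272 (Ptges3), chr2:25466709-25470046 (Ptgds), chr8:56294585-56321043 (Hpgd), chr11:78920787-78960254 (Nos2) and chr14:47153895-47189413 (Gch1), and their exons overlap no other annotated gene. The strand setting of the counting is not given in the sources used here, so the low Ptgs1 counts are uncertain.

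The rounded expected counts summed to between 17349682 and 34434615 per library, and 3 counts corresponded to 0.0848 to 0.181 CPM (counts scaled to a common library size with edgeR's TMM factors), counting error only. As a check of the labels, Gstm1 stood at 23.3 to 31.4 CPM in the GSTM1 KD libraries and at 209 to 391 CPM in the control KD libraries. The summed level of the 8 astrocyte markers was 2897 and 6631 CPM in control KD and 5802 and 8773 CPM in GSTM1 KD before stimulation, so that control KD replicate 1 was low, and it was low again after TNF-α stimulation (3015 against 6813 CPM). Summed levels of 10 meningeal fibroblast markers ran from 305 to 467 CPM in unstimulated control KD against 179 to 285 CPM in unstimulated GSTM1 KD, and from 279.9 to 445 against 173 to 283 CPM with TNF-α. Of those markers Slc6a13 and Slc22a6 were at 0 in every library, and Col1a2 was lower with GSTM1 KD in either state (1 of 7 tested at the basal level, 2 of 7 after TNF-α, with Foxc1). The 6 endothelial markers summed to 17.5 to 18.7 CPM in control KD and 9.14 to 12.2 CPM in GSTM1 KD at the basal level, with Cldn5 at 0 in every library. With TNF-α the endothelial sums were 20.2 and 25.5 against 12.7 and 17.6 CPM. Microglial markers summed to between 45.5 and 54.6 CPM over the 8 libraries, with P2ry12 at 3 counts or fewer throughout. The 10 oligodendrocyte lineage markers summed to 709.8 and 840.4 CPM in control KD against 615 and 608 CPM in unstimulated GSTM1 KD, and to 620.1 and 734 against 543 and 537 CPM after TNF-α, with Olig2 called lower in either state and Olig1 after TNF-α. Of the oligodendrocyte lineage markers, Mog and Mag were at 3 counts or fewer throughout and Mbp at 2 to 19 counts. The sums of that list came mostly from Olig1, Olig2, Cnp and Cspg4. Of the 8 astrocyte markers tested 1 was called, S100b, lower in either state. The log2 differences of the other 7 ran from -0.50 (Sox9) to 1.1 (Gfap) at the basal level and from -0.41 (Sox9) to 1.22 (Aldh1l1) after TNF-α. Of 3 choroid plexus markers tested 1 was called, Folr1, higher in either state. The choroid plexus markers summed to 5.83 and 10.2 CPM in unstimulated control KD against 10.6 and 12.4 CPM in unstimulated GSTM1 KD, and to 2.89 and 4.99 against 7.39 and 10.1 CPM with TNF-α. The 5 neuronal markers summed to 303 and 329 against 373 and 360.3 CPM without and to 291 and 293 against 354 and 334 CPM with TNF-α. Of the neuronal markers, Snap25 was at 3 counts or fewer throughout, Rbfox3 at 1 to 9 and Syt1 at 11 to 27 counts. The neuronal sums thus came almost only from Tubb3 and Map2. The part of these cell types in the results below was not tested, and in bulk RNA fewer cells of a type and less RNA per cell cannot be told apart.

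Among the 10 genes, Ptgs2 and Ptges were lower in GSTM1 KD than in control KD astrocytes, whether or not TNF-α had been given. At the basal level 8 of the 10 had enough counts for edgeR's quasi-likelihood test and 2 passed an adjusted p of 0.05 (Benjamini-Hochberg over all genes tested), both lower, where 10.2% of all genes tested passed. After TNF-α stimulation 9 were tested and the same 2 passed, where 16.2% of all genes did. TNF-α raised Ptgs2, Ptges, Nos2 and Gch1 in control KD (4 of 9 tested, where 2.63% of all genes passed) and Ptges, Nos2 and Gch1 in GSTM1 KD (3 of 9, where 2.65% passed). These comparisons share libraries: the 2 groups of each KD enter both its TNF-α response and a comparison between KD groups.

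**Figure D1:**
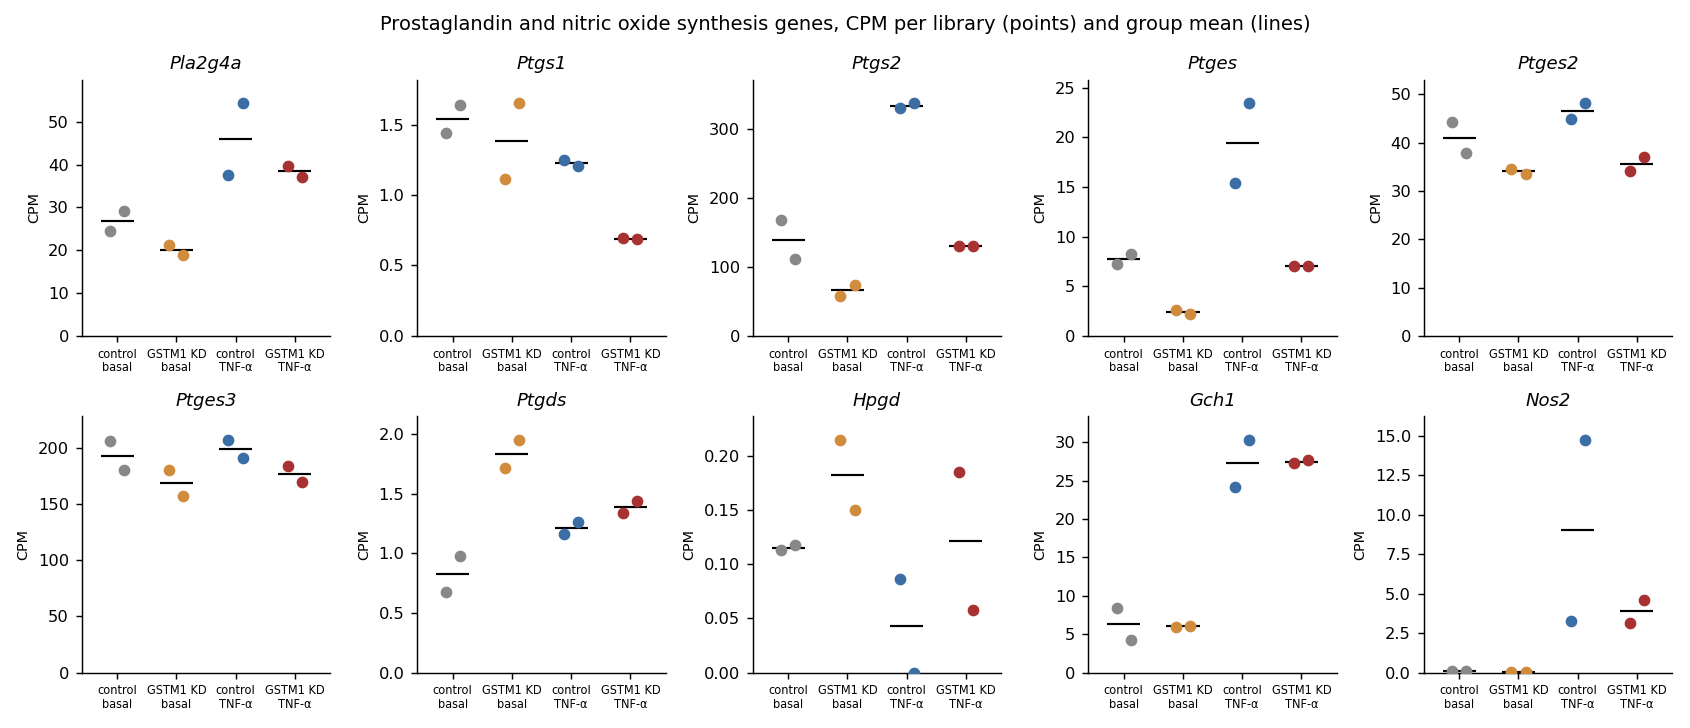
CPM of each of the 10 genes (vertical axes, linear, from 0) in the 8 libraries, 2 points per group, with group means as lines. The Ptgs2 points of control KD after TNF-α lie at 330.4 and 338 CPM and those of GSTM1 KD after TNF-α at 130.5 and 130.1 CPM, and Nos2 is near 0 in the 4 basal libraries.

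Pla2g4a, the phospholipase that supplies arachidonic acid, was at 24.5 and 29.1 CPM in control KD and at 21.1 and 19.0 CPM in GSTM1 KD at the basal level. With TNF-α it stood at 37.6 and 54.4 CPM in control KD and at 39.8 and 37.1 CPM in GSTM1 KD. The basal groups were apart and the stimulated ones overlapped. Neither the basal difference (-0.42 ± 0.15 SE, adjusted p = 0.130) nor the one after TNF-α (-0.28 ± 0.19 SE, adjusted p = 0.329) passed. With TNF-α its log2 changes were 0.78 ± 0.18 SE in control KD (adjusted p = 0.0875) and 0.94 ± 0.19 SE in GSTM1 KD (adjusted p = 0.0522), and DESeq2 placed both past the threshold (0.00798 and 9.60e-04).

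Ptgs2, the inducible cyclooxygenase, was at 168 and 112 CPM in control KD and at 58.6 and 74.4 CPM in GSTM1 KD at the basal level. After TNF-α it was at 330.4 and 338 CPM in control KD and at 130.5 and 130.1 CPM in GSTM1 KD. The groups did not overlap in either state, and the stimulated GSTM1 KD libraries stood within the range of unstimulated control KD. At the basal level it was 2.10-fold lower in GSTM1 KD (log2 fold change -1.07 ± 0.23 SE, edgeR adjusted p = 0.0430, n = 2 per group). After TNF-α it was 2.61-fold lower (-1.38 ± 0.10 SE, adjusted p = 0.00981). Both calls were lost when either GSTM1 KD library of that state was left out (adjusted p = 0.193 and 0.168 without, 0.0650 and 0.0575 with TNF-α), while the log2 fold changes without any 1 library stayed between -1.35 and -0.75 and between -1.40 and -1.37.

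TNF-α raised Ptgs2 2.39-fold in control KD (log2 fold change 1.26 ± 0.20 SE, adjusted p = 0.0210). In GSTM1 KD the log2 fold change with TNF-α was 0.97 ± 0.20 SE, with an adjusted p of 0.0558 in edgeR and 3.18e-04 in DESeq2. The stimulated libraries lay above the unstimulated ones in both KD groups. The difference of the 2 responses (GSTM1 KD minus control KD) was -0.29 ± 0.27 SE on the log2 scale, with an adjusted p of 1.00, so that a difference in the TNF-α response of Ptgs2 was not detectable with these libraries.

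Ptgs1, the constitutive cyclooxygenase, had 12 to 51 counts per library. It was at 1.44 and 1.64 CPM in control KD and at 1.12 and 1.65 CPM in GSTM1 KD at the basal level, where the groups overlapped. After TNF-α the values were 1.25 and 1.2 CPM in control KD and 0.693 and 0.690 CPM in GSTM1 KD, which did not overlap. The log2 difference after TNF-α was -0.85 ± 0.36 SE with an adjusted p of 0.151, and the log2 change with TNF-α in GSTM1 KD was -0.99 ± 0.33 SE with an adjusted p of 0.279, so neither passed.

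On the deposited TPM scale, which divides by transcript length and so allows levels of different genes to be set side by side, Ptgs2 made up almost all cyclooxygenase mRNA. It stood at 67.9 and 45.5 TPM in control KD and at 24.9 and 32.2 TPM in GSTM1 KD at the basal level. Ptgs1 stood at 1.46 and 1.07 TPM and at 0.76 and 1.12 TPM in the same libraries. The share of Ptgs2 in the sum of both was 97.8% ± 0.13 (SD, n = 2) in control KD and 96.8% ± 0.28 in GSTM1 KD without stimulation. After TNF-α the shares were 99.3% ± 0.13 and 99.0% ± 0.18. The TPM ratio of Ptgs2 to Ptgs1 was 46.5 and 42.6 in control KD, 32.7 and 28.8 in GSTM1 KD without TNF-α, 132 and 176 in control KD after TNF-α, and 118 and 90.6 in GSTM1 KD after TNF-α. Every stimulated library had a higher ratio than every unstimulated one, and within each state both GSTM1 KD libraries were below both control KD libraries.

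In unstimulated control KD the 10 genes formed an order by TPM that spanned from Ptges3 at 187 ± 17 (SD, n = 2) to Nos2 at 0.045 ± 0.0071. Between them came Ptgs2 at 56.7 ± 15.8 and Ptges2 at 50.6 ± 5.3, which overlapped, then Pla2g4a at 17.5 ± 2.2, and Ptges at 5.46 ± 0.49 and Gch1 at 4.24 ± 1.99, which overlapped. Ptgds at 2.41 ± 0.68, Ptgs1 at 1.27 ± 0.28 and Hpgd at 0.135 ± 0.0071 came next and did not overlap each other, while Ptgds overlapped Gch1. After TNF-α in control KD, Ptgs2 stood second at 133 ± 0.40, apart from Ptges2 at 52.3 ± 1.4, and Nos2 at 3.95 ± 3.48 overlapped Ptgds at 3.45 ± 0.19.

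Ptges, which encodes the inducible microsomal prostaglandin E synthase, was at 7.21 and 8.29 CPM in control KD and at 2.58 and 2.25 CPM in GSTM1 KD at the basal level. After TNF-α it was at 15.4 and 23.5 CPM in control KD and at 7.02 and 7.07 CPM in GSTM1 KD. The groups were apart in both states. The stimulated GSTM1 KD libraries lay near the unstimulated control KD libraries, slightly below them in CPM and overlapping them in TPM (5.01 and 5.78 against 5.11 and 5.80). It was 3.20-fold lower in GSTM1 KD at the basal level (log2 fold change -1.68 ± 0.23 SE, adjusted p = 0.0222) and 2.79-fold lower after TNF-α (-1.48 ± 0.24 SE, adjusted p = 0.0207). Leaving out either GSTM1 KD library ended the call in that state, where calls over all genes fell too. A fit without 1 library of either KD group takes its spread from the 2 libraries of the other only. It thus cannot show whether the calls are stable. Without control KD replicate 1 or 2, the log2 fold changes of Ptges were -1.78 and -1.58 at the basal level. After TNF-α they were -1.75 and -1.15. With the deposited effective lengths as offsets the basal difference was -1.43 ± 0.38 SE with an adjusted p of 0.0710. The effective length of Ptges was 1583 bases in GSTM1 KD replicate 1 and 2908 bases in replicate 2 at the basal level, against 2410 and 2458 bases in control KD.

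TNF-α raised Ptges in both KD groups, 2.5-fold in control KD (log2 fold change 1.32 ± 0.22 SE, adjusted p = 0.0268) and 2.91-fold in GSTM1 KD (1.54 ± 0.25 SE, adjusted p = 0.0219). With the effective lengths as offsets the adjusted p values were 0.0738 and 0.130. The difference of the responses was 0.22 ± 0.33 SE with an adjusted p of 1.00.

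**Figure D2:**
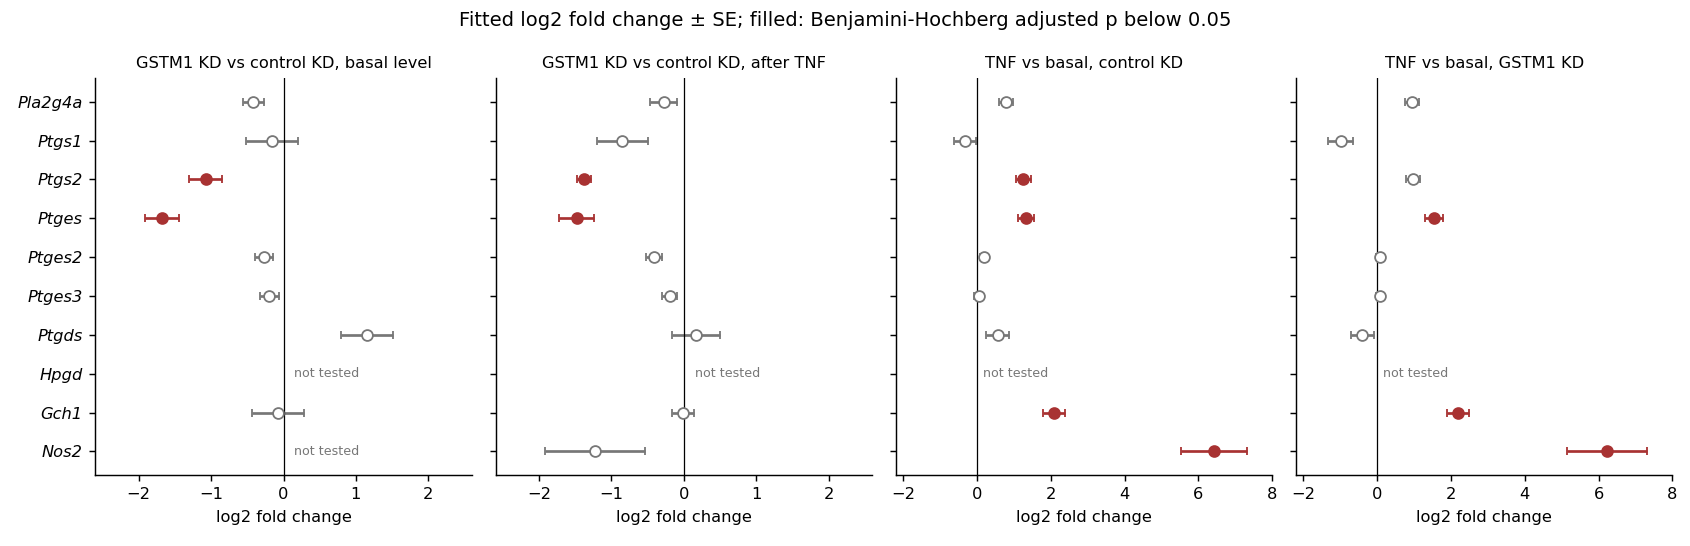
Fitted log2 fold changes (horizontal axes, ± SE) of the genes tested in 4 comparisons, with filled points for an adjusted p below 0.05, while Hpgd and, at the basal level, Nos2 are marked as not tested. Ptgs2 and Ptges are the filled points left of 0 in both comparisons of GSTM1 KD with control KD (-1.07 and -1.68 at the basal level), and the horizontal axes of the TNF-α responses reach further because of Nos2.

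The constitutive prostaglandin E synthases passed no test in the main design. Ptges2, a membrane-associated synthase, was at 44.2 and 37.8 CPM in control KD and at 34.5 and 33.6 CPM in GSTM1 KD before stimulation, and at 44.9 and 48.2 against 34.1 and 37.0 CPM after TNF-α. The GSTM1 KD libraries were below the control KD libraries of the same state, with differences of -0.27 ± 0.13 SE (adjusted p = 0.211) and -0.41 ± 0.11 SE (adjusted p = 0.0552) on the log2 scale, and neither difference passed. The one after TNF-α was past the threshold without the filter (adjusted p = 0.0364) and with all 8 libraries in the fit (0.0463). Ptges3, the cytosolic synthase also known as the HSP90 co-chaperone p23, was at 206 and 179.8 CPM in control KD and at 179.8 and 157 CPM in GSTM1 KD before stimulation, and at 207 and 190.4 against 184 and 169 CPM after TNF-α. Its log2 differences of -0.20 ± 0.13 SE and -0.20 ± 0.11 SE had adjusted p values of 0.351 and 0.246. With TNF-α the log2 changes of Ptges2 and Ptges3 lay between 0.04 and 0.18, and none passed.

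By TPM, Ptges3 held 71.8% to 81.4% of the sum of the 3 prostaglandin E synthases in each library and Ptges the smallest share. The unstimulated control KD libraries had Ptges shares of 1.97% and 2.54%, and those of GSTM1 KD 1.3% and 0.684%. The gap within unstimulated GSTM1 KD went with the effective lengths given above (1583 and 2908 bases), as the CPM of these libraries were 2.58 and 2.25, so the basal GSTM1 KD shares are uncertain. With TNF-α the shares were 4.59% and 7.03% in control KD against 2.25% and 2.62% in GSTM1 KD. The highest shares were those of stimulated control KD, the lowest those of unstimulated GSTM1 KD, and the stimulated GSTM1 KD shares spanned the higher of the unstimulated control KD values. Shares of mRNA say nothing of enzyme activity, which was not measured here.

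**Figure D3:**
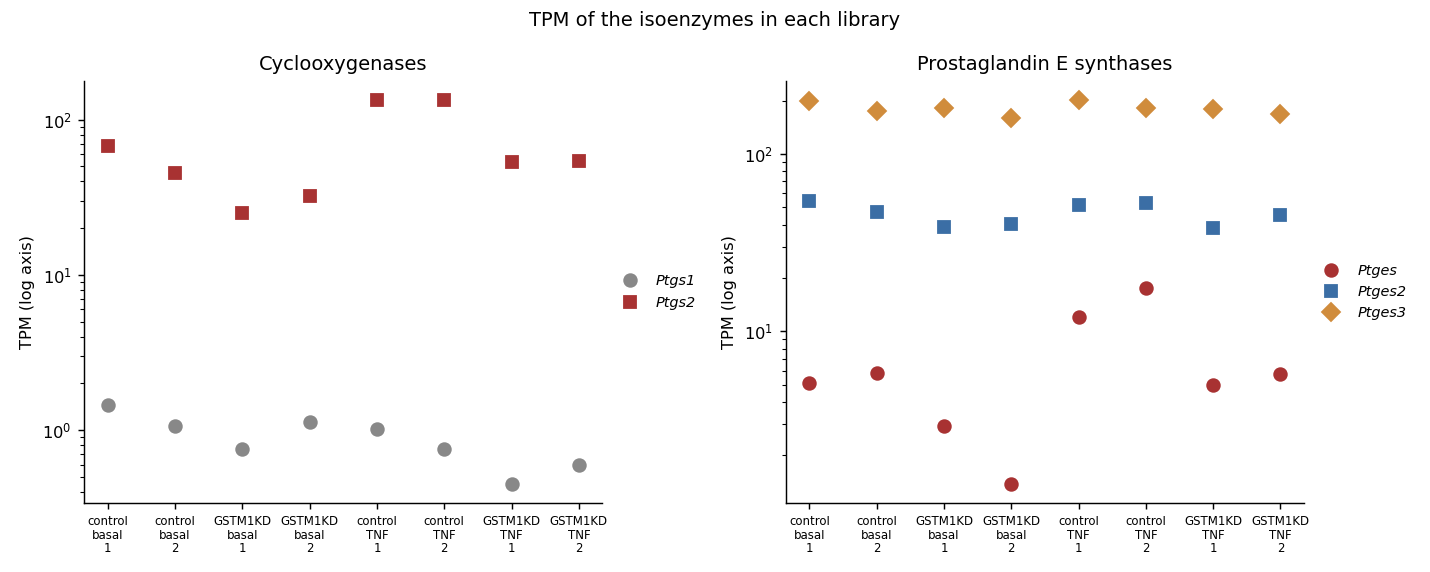
TPM (vertical axes, logarithmic) of the cyclooxygenases Ptgs1 and Ptgs2 and of the prostaglandin E synthases Ptges, Ptges2 and Ptges3 in each of the 8 libraries. Ptgs2 lies 28.8 to 176 times above Ptgs1, and Ptges3 is the highest and Ptges the lowest of the synthases in every library.

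Ptgds, the lipocalin-type prostaglandin D synthase, had 21 to 40 counts per library. It was at 0.679 and 0.978 CPM in control KD and at 1.72 and 1.95 CPM in GSTM1 KD at the basal level, which did not overlap. With TNF-α it stood at 1.16 and 1.26 CPM in control KD and at 1.34 and 1.44 CPM in GSTM1 KD. The log2 differences of GSTM1 KD from control KD were positive, 1.16 ± 0.36 SE at the basal level (adjusted p = 0.0945) and 0.17 ± 0.33 SE after TNF-α (adjusted p = 0.744), and neither passed. The basal one was past the threshold without the filter (adjusted p = 0.0476) and with all 8 libraries in the fit (0.0410). Its values were higher with TNF-α in both control KD libraries and lower in both GSTM1 KD libraries, with log2 changes of 0.56 ± 0.31 SE and -0.40 ± 0.30 SE that did not pass either.

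Hpgd, the enzyme that inactivates prostaglandins, had 0 to 5 counts per library, at or near the floor of 3 counts, and was not tested in any comparison. No fold change is given for it.

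Nos2, the inducible nitric oxide synthase, had 4 and 2 counts in the unstimulated control KD libraries and 1 count in each unstimulated GSTM1 KD library. With TNF-α the control KD libraries had 76 and 245 counts and the GSTM1 KD libraries 68 and 80. Every stimulated library was above every unstimulated one, and control KD replicate 2 after TNF-α, at 14.7 CPM, stood apart from the 3.14 to 4.60 CPM of the other 3 stimulated libraries. With the summed counts divided by the summed library sizes (TMM-scaled), the ratio of stimulated to unstimulated was 81.8 in control KD (95% exact interval 37.2 to 225) and 82.0 in GSTM1 KD (22.3 to 683), intervals that cover counting error only. Of the 321 stimulated counts in control KD, 245 came from replicate 2. The fitted log2 change in control KD was 5.01 without that library and 7.15 without stimulated replicate 1, so the like size of the ratios in both KD groups rests on it. The rise passed in edgeR in both KD groups (adjusted p = 0.0133 and 0.0303). The size of the fitted log2 change is uncertain, as the unstimulated libraries had only 1 to 4 counts each. How far it depends on the prior count was not tested. On the TPM scale Nos2 reached 1.49 and 6.41 TPM in control KD and 1.42 and 2.06 TPM in GSTM1 KD after TNF-α.

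After TNF-α the log2 difference of Nos2 between GSTM1 KD and control KD was -1.23 ± 0.69 SE, and it did not pass (adjusted p = 0.256). This difference rested on 1 library. Without control KD replicate 2 it was 0.21, and without control KD replicate 1 it was -1.96 with an adjusted p of 0.00508. With all 4 libraries and no filter on low counts its adjusted p was 8.93e-05. At the basal level Nos2 had too few counts to be tested.

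Gch1, which makes the first step to the cofactor of nitric oxide synthases, was at 8.43 and 4.18 CPM in control KD and at 5.92 and 6.11 CPM in GSTM1 KD at the basal level. After TNF-α it was at 24.2 and 30.3 CPM in control KD and at 27.3 and 27.7 CPM in GSTM1 KD. The KD groups overlapped in both states, and the stimulated libraries were all above the unstimulated ones. TNF-α raised Gch1 4.27-fold in control KD (log2 fold change 2.09 ± 0.30 SE, adjusted p = 0.0140; 2.70 without unstimulated control KD replicate 1 and 1.70 without replicate 2) and 4.56-fold in GSTM1 KD (2.19 ± 0.30 SE, adjusted p = 0.0116). The log2 differences between KD groups were -0.08 ± 0.36 SE at the basal level and -0.01 ± 0.15 SE after TNF-α, with adjusted p values of 0.904 and 0.969.

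The TNF-α responses of GSTM1 KD and control KD were compared directly for the 9 genes tested. By edgeR 0 of 9 passed and 0 had an unadjusted p under 0.05, and DESeq2 called 0. The background was likewise 0.00% of 15332 genes tested in edgeR, with 295 genes at an unadjusted p under 0.05 and 27 called by DESeq2. The log2 differences were between -0.96 (Ptgds) and 0.22 (Ptges). The lower Ptgs2 and Ptges after TNF-α in GSTM1 KD stood beside a lower basal level, and no difference in their responses was detectable.

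The calls of the TNF-α responses depended on which libraries were in the fit. With only the 4 libraries of control KD in the fit, 0 of the 4 calls remained (adjusted p = 0.130 to 0.169). Calls over all genes fell too, to 72 of 14803 tested from 403 of 15332, so the loss was not limited to these 4 genes. Their log2 changes under this smaller fit were 1.27 for Ptgs2, 1.33 for Ptges, 6.45 for Nos2 and 2.11 for Gch1. In the fit of all 8 libraries, the call of Ptgs2 in control KD was lost when any 1 stimulated library was left out (adjusted p up to 0.0828). That of Ptges was lost without any 1 library other than stimulated control KD replicate 1 (up to 0.108). That of Nos2 was lost without either unstimulated control KD library (0.0700 and 0.0858) and that of Gch1 without stimulated control KD replicate 2 (0.0627). With only the 4 libraries of GSTM1 KD, 5 genes passed instead of 3, with Ptgs2 (adjusted p = 0.0153) and Pla2g4a (0.00953) added. Over all genes, 691 of 14753 tested passed in that fit, against 406 of 15332 with all 8 libraries. In the fit of all 8 libraries, the GSTM1 KD calls of Ptges, Nos2 and Gch1 were lost when any GSTM1 KD library was left out, with adjusted p values between 0.0584 and 0.274.

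A further 70 genes of these pathways, in 9 lists, were looked up in the same fits. Between GSTM1 KD and control KD 1 of 48 tested was higher and 3 were lower at the basal level, and 3 of 47 were higher and 3 lower after TNF-α, shares below the 10.2% and 16.2% of all genes. Their median log2 difference was 0.12 and 0.01, where that of all genes tested was -0.00 and -0.01. In control KD 3 of 50 tested rose with TNF-α, where 2.63% of all genes passed. In GSTM1 KD, where 2.65% of all genes passed, 0 of 50 did in edgeR, with 2 called by DESeq2 and 4 at an unadjusted p under 0.05.

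**Figure D4:**
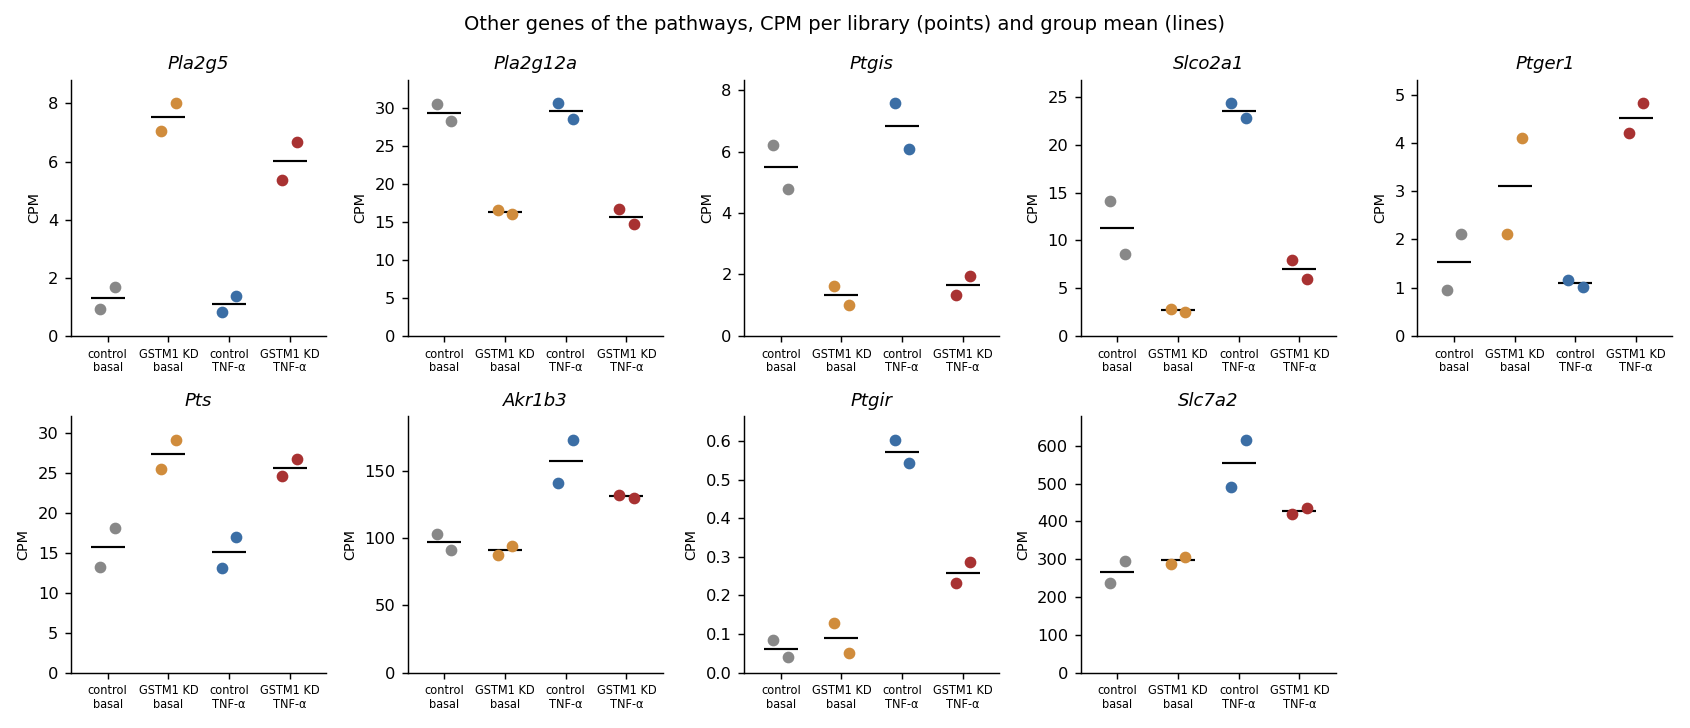
CPM (vertical axes, linear, from 0) of the 9 further pathway genes that passed a test, in the 8 libraries, 2 points per group, with group means as lines. Pla2g5, Pla2g12a, Ptgis and Slco2a1 separate by KD group in both states, and Slco2a1 lies at 24.4 and 22.8 CPM in stimulated control KD against 7.99 and 5.92 CPM in stimulated GSTM1 KD.

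Of the 12 phospholipase and arachidonate supply genes, 9 had enough counts without stimulation and 10 with TNF-α. In either state 1 was higher and 1 was lower with GSTM1 KD, where 10.2% and 16.2% of all genes passed. Pla2g5, a secreted phospholipase A2, was at 0.933 and 1.68 CPM in control KD and at 7.04 and 8.02 CPM in GSTM1 KD at the basal level. It was 5.82-fold higher in GSTM1 KD at the basal level (log2 fold change 2.54 ± 0.35 SE, adjusted p = 0.0214) and 5.44-fold higher after TNF-α (2.44 ± 0.35 SE, adjusted p = 0.0174). With the effective lengths as offsets the log2 difference after TNF-α was 1.82 ± 0.33 SE (adjusted p = 0.0247), and the effective length of Pla2g5 ran from 972 to 1749 bases over the libraries. Pla2g12a, another secreted phospholipase A2, was at 30.5 and 28.4 CPM in control KD and at 16.6 and 16.0 CPM in GSTM1 KD at the basal level. Its log2 differences were -0.85 ± 0.13 SE at the basal level (adjusted p = 0.0250) and -0.94 ± 0.14 SE after TNF-α (adjusted p = 0.0177).

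Ptgis, which makes prostacyclin from prostaglandin H2, was the 1 that passed between KD groups among the other prostanoid synthases and reductases, of which 8 were tested unstimulated and 7 with TNF-α, against the 10.2% and 16.2% of all genes. Unstimulated, the control KD libraries had 220 and 122 counts of it and the GSTM1 KD libraries 38 and 20, and with TNF-α the counts were 176 and 101 against 29 and 34. It was 4.15-fold lower at the basal level (log2 fold change -2.05 ± 0.35 SE, adjusted p = 0.0283) and 4.25-fold lower after TNF-α (-2.09 ± 0.31 SE, adjusted p = 0.0180). Slco2a1, the prostaglandin transporter that takes up prostaglandins, had 498 and 218 counts in the unstimulated control KD libraries against 66 and 50 in those of GSTM1 KD. It was 4.24-fold lower at the basal level (-2.08 ± 0.31 SE, adjusted p = 0.0238) and 3.44-fold lower after TNF-α (-1.78 ± 0.20 SE, adjusted p = 0.0112). Both genes are also known from endothelial cells and fibroblasts. The endothelial sums were lower in GSTM1 KD in either state and the fibroblast sums without stimulation, while the stimulated fibroblast sums overlapped. At the basal level the log2 differences of the 3 endothelial markers tested were -1.65 (Cdh5), -0.91 (Flt1) and 1.39 (Kdr), each with an unadjusted p under 0.05 and none past the threshold in edgeR. Those of the 7 fibroblast markers tested were -1.13 (Col1a2, called), -1.05 (Col3a1), -0.52 (Col1a1), -0.43 (Foxc1), -0.06 (Igf2), 0.15 (Dcn) and 0.22 (Aldh1a2).

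Of the 9 prostanoid receptor genes, 4 were tested after TNF-α and 1 passed, against the 16.2% of all genes. Ptger1, a receptor for prostaglandin E2, was at 1.16 and 1.02 CPM in control KD and at 4.2 and 4.83 CPM in GSTM1 KD after TNF-α, and was 4.02-fold higher there (log2 fold change 2.01 ± 0.30 SE, adjusted p = 0.0179). Pts, which makes the second step of tetrahydrobiopterin synthesis after Gch1, was the 1 that passed of 6 tested in that list, near the 16.2% of all genes. It was at 13.1 and 17 CPM in control KD and at 24.6 and 26.7 CPM in GSTM1 KD after TNF-α (0.75 ± 0.17 SE, adjusted p = 0.0406). With the effective lengths as offsets its adjusted p was 0.0886. The calls between KD groups lay in the lists of phospholipases, other prostanoid synthases, transporters, receptors and tetrahydrobiopterin synthesis. Over all 70 further genes their share was below the 10.2% and 16.2% of all genes, so the spread over lists is a description only.

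The 3 further genes that rose with TNF-α in control KD act in different steps. Slc7a2, a transporter for arginine, was at 237 and 295 CPM without and at 491 and 616 CPM with TNF-α (log2 fold change 1.06 ± 0.15 SE, adjusted p = 0.0138). Akr1b3, an aldo-keto reductase that can make prostaglandin F2α, was at 103 and 91.2 CPM without and at 141 and 173 CPM with TNF-α (0.69 ± 0.12 SE, adjusted p = 0.0308). Ptgir, the prostacyclin receptor, had 3 and 1 counts without and 14 and 9 counts with TNF-α (adjusted p = 0.0440), which is near the floor, and DESeq2 gave an adjusted p of 0.175. All 13 calls of these further genes had groups that did not overlap. The call of Slc7a2 was lost without stimulated control KD replicate 2 (adjusted p = 0.0553), that of Akr1b3 in 7 of 8 and that of Ptgir in 8 of 8 fits without 1 library (up to 0.128 and 0.207). With only the 4 control KD libraries in the fit these 3 calls were lost too (up to 0.201). Calls over all genes fell from 403 to 72 under that setting. The 10 calls between KD groups were each lost when either GSTM1 KD library of that state was left out, where calls over all genes fell too. Such a fit takes its spread from the control KD libraries of that state only, so it cannot show whether these calls are stable.

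The genes whose profile over the 8 libraries came nearest to those of Ptgs2, Ptges, Nos2 and Gch1 were looked up by the root mean square difference of centred log2 CPM among 15323 genes, as a description without a test. For Ptgs2 they were Rab8b (0.17), Lif (0.18), Mvp (0.19), Fam131c (0.21) and Map3k6 (0.24), where the median over all genes was 0.89. For Ptges they were Ablim3 (0.29), Lif (0.30), Wnt11 (0.32), Mvp (0.32) and Rhbdf2 (0.32), so that Lif and Mvp were near to both. Nos2 was nearest to Acod1 (0.59), Tlr2 (0.62), Il23a (0.63), Ccl5 (0.64) and RP23-52N2.1 (0.64), at larger distances, and its own centred values had a root mean square of 2.62 against 0.85 for Ptgs2. Gch1 was nearest to Nfkb2 (0.25), Rspo3 (0.28), Tnip1 (0.31), Rrad (0.31) and Pdgfb (0.32). The 8 libraries share 4 groups, and likeness over them includes what the groups share.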

How the data were processed

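Per the labels and the study's methods, the authors made strand-specific libraries from total RNA, mapped reads to GRCm38 with STAR (2.5.4b) and quantified them with RSEM (1.3.0). Expected counts, as deposited, are per-gene estimates by RSEM and were rounded for tests. The deposited TPM values, scaled by the authors to the same total in each library, gave levels between genes. The deposited effective lengths, in bases, entered only as offsets in an alternative. FPKM and plain lengths were not used, and the annotation release is not given in the sources used here. edgeR (4.0.16, R 4.3.3) gave TMM factors, the filter filterByExpr and the quasi-likelihood F-test on all genes, with Benjamini-Hochberg adjustment at 0.05. KD groups were compared on the 4 libraries of a state, and TNF-α responses and their difference on all 8. SE is the log2 fold change divided by the root of F. The interval of the Nos2 ratio is Clopper-Pearson at 95% (scipy 1.17.1).

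Named are all 10 genes, other pathway genes past the threshold whose groups did not overlap (at most 10 per comparison), 5 genes nearest in profile to Ptgs2, Ptges, Nos2 and Gch1 (prior count 2), Gstm1 and cell type markers. Members and lists were chosen with earlier results of these data known. Of 54146 identifiers, 52480 were identical in GENCODE M21, and 9 of the 10 genes matched the RefSeq promoters. Alternatives were DESeq2 (1.42.0), its size factors, library size only, no filter, a minimum of 10 counts in each library, edgeR's newer quasi-likelihood method, a replicate block, effective length offsets, other sets of libraries in the fit and leaving out each library. The fits were also run on simulated counts with the same relative spread for every gene and no replicate effect. That run cannot give the error rates of the fits on these libraries.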

Additional observations from a re-analysis of the deposited data

Results flagged for a closer look

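Ptgds stood out because TNF-α went with higher values in every control KD library and lower values in every GSTM1 KD library: 0.679 and 0.978 CPM without against 1.16 and 1.26 CPM with TNF-α in control KD, and 1.72 and 1.95 against 1.34 and 1.44 CPM in GSTM1 KD. The difference of the responses was -0.96 ± 0.43 SE on the log2 scale. By edgeR's quasi-likelihood test it had an unadjusted p of 0.0620 and an adjusted p of 1.00, so that it did not pass, and it rests on 21 to 40 counts per library.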

How the results depend on the processing

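With 2 libraries per group, calls depended on single libraries and on the estimate of spread. Of the 10 genes, the number of calls at the basal level (2) was 1 with effective length offsets, 3 without the filter and with all 8 libraries (Ptgds added), and 0 to 4 when 1 library was left out. After TNF-α (2) it was 4 without the filter (Ptges2 and Nos2 added), 3 with all 8 libraries and 0 to 5 when 1 library was left out. For TNF-α in control KD (4) it was 0 with only the 4 libraries of that KD, 3 with at least 10 counts and with effective length offsets, 5 with DESeq2 and without the filter (Pla2g4a added) and 1 to 4 with 1 library left out. For TNF-α in GSTM1 KD (3) it was 5 with DESeq2, without the filter, with the replicate block and with only the 4 libraries of that KD, 4 with library size only, 2 with at least 10 counts and with effective length offsets, and 0 to 4 with 1 library left out. Counts over all genes moved too, also when 1 library was left out. At the basal level they went from 1524 to 1232 with effective length offsets, 3957 without the filter and 2762 with all 8 libraries. After TNF-α they went from 2360 to 4540 without the filter and 3116 with all 8 libraries. For TNF-α in control KD 403 became 72 with only its 4 libraries, 742 with DESeq2 and 1255 without the filter. In GSTM1 KD 406 became 691, 630 and 1050 under these settings. The cause was not tested. For the difference of the responses, no setting gave a call among the 10 genes. Over all genes, that difference had 0 calls in the main fit, 27 with DESeq2 and 134 without the filter.

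The replicate block gave 3, 3, 5, 5 and 0 of the 10 genes in the 5 comparisons, adding Ptgds at the basal level (adjusted p = 0.0344), Ptges2 after TNF-α (0.0255), and with TNF-α Pla2g4a in control KD (0.0409) and Pla2g4a (0.0247) and Ptgs2 (0.0343) in GSTM1 KD, and 4712, 4302, 988, 808 and 0 of all genes against 1524, 2360, 403, 406 and 0. Replicate 1 minus replicate 2 correlated between groups over 15332 genes with r of 0.165 to 0.575, a hint from the data only. The highest r were those of unstimulated with stimulated libraries within control KD (0.575) and within GSTM1 KD (0.330). Those between KD groups ran from 0.165 to 0.284. The main tests of the TNF-α responses did not use the replicate number. Of the further pathway genes, 4 passed at the basal level against 8 with DESeq2, 13 without the filter and 14 with the replicate block, and 6 after TNF-α against 9, 13 and 12.

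Directions of differences that did not pass turned over as follows, with the main log2 value first. Gch1 after TNF-α, -0.01, was 0.027 with library size only, 0.0079 with at least 10 counts and 0.014 with all 8 libraries in the fit. For the difference of the responses, Ptges (0.22) was -0.081 and Ptges2 (-0.12) was 0.048 with effective length offsets, Ptges3 (0.02) was -3.81e-05 with at least 10 counts, and Nos2 (-0.21) was 0.13 with the replicate block. Leaving out 1 library gave -0.47 to 0.10 for Ptgs1 and -0.50 to 0.52 for Gch1 between KD groups at the basal level. After TNF-α it gave -0.52 to 0.010 for Pla2g4a, -1.96 to 0.21 for Nos2 and -0.16 to 0.16 for Gch1. For Ptges3 with TNF-α it gave -0.042 to 0.15 in control KD and -0.024 to 0.17 in GSTM1 KD. For the difference of the responses it gave -0.054 to 0.53 for Ptges, -0.079 to 0.12 for Ptges3, -0.081 to 0.43 for Pla2g4a, -0.93 to 1.22 for Nos2 and -0.51 to 0.49 for Gch1. The log2 fold changes of Ptgs2 and Ptges between KD groups kept their sign under every alternative run. The shares by TPM were recomputed only with the same effective lengths (counts per length with TMM factors), where they moved by less than the spread between replicates, so that their dependence on length was not tested. Depth limits Hpgd, unstimulated Nos2 and Ptgir, which lie near 3 counts.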
